A study of Citrus trifoliata with 2 samples.

Results

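Transcripts of F-box proteins, of their SKP1-like and cullin partners, and of kelch repeat proteins were examined in buds of Citrus trifoliata, the trifoliate orange used as a citrus rootstock. Members were chosen by the protein name of the Swiss-Prot best hit. The names taken were cullin, SKP1-like, kelch repeat, FBD-associated, and F-box followed by protein, only, kelch or LRR; the auxin receptor F-box and Adagio names were left out. This gave 238 of 35775 unigenes, or 0.665%, where a unigene is an assembled transcript model with no genome position. The mutant library came from the precocious trifoliate orange, a form named for early flowering, and the wild-type library from the normal form. Both samples held the bud at the shoot end and the 5 buds next to it, from spring flushes of 2-year-old untreated trees at the time of flower initiation that follows self-pruning of the shoot apex. The sources used here give neither the altered gene nor the number of trees per library. With 1 library per group no difference between genotypes could be tested, and genotype, tree and library cannot be told apart.

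An SCF ubiquitin ligase marks proteins for breakdown by the proteasome. Cullin-1 is its scaffold, a SKP1-like protein is the adaptor, and the F-box protein is the exchangeable receptor that binds SKP1 through the F-box and the target through a second domain, often leucine-rich repeats (LRR) or kelch repeats. Plants carry large F-box families, and members act as receptors or switches in hormone, light, clock and floral development pathways. Kelch repeat proteins with a BTB domain serve cullin-3 ligases instead.

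Unigenes that passed the minimum level below held 10032432 mutant reads and 9990200 wild-type reads. Members took 78294 reads of the mutant library (0.780% of its total) and 78160 of the wild-type library (0.782%). Levels are given as RPKM, reads per kilobase of unigene scaled to the library total. A unigene was kept when it reached 1 RPKM in at least 1 library, which 230 members and 34255 unigenes in all did. The 8 members set aside had at most 4 reads in either library. Folds of single unigenes are ratios of reads per library total, with exact 95% Clopper-Pearson intervals that cover counting error only. The bud markers were present, and 41 of 43 unigenes of the shoot meristem list were kept. These had 13612 reads in the mutant library against 13388 in the wild-type library. By counting interval 12 were higher in the mutant library (against 19.8% of all kept unigenes) and 4 lower (against 14.4%). Past 2-fold, on the scale defined below, 1 was higher (2.44%, against 8.61%) and 3 lower (7.32%, against 5.31%). KNOTTED hits had 8917 against 9020 reads and SHOOT MERISTEMLESS hits 137 against 171. WUSCHEL hits had 1525 against 1320, CUP-SHAPED COTYLEDON hits 127 against 98 and CLAVATA hits 2908 against 2790. No protein name held the word KNAT1 or AINTEGUMENTA, and a search by name alone does not show that such genes were absent. Green leaf transcripts were also plentiful, at 44294 against 46985 reads over 26 unigenes. Of these 26, 2 were higher by counting interval (against 19.8% of all kept unigenes) and 11 lower (against 14.4%). Past 2-fold were 0 in either direction.

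As a family the members were at nearly equal levels in both libraries. The median log2((mutant RPKM + 1)/(wild-type RPKM + 1)), here called the log2 ratio, was -0.00112 over the 230 kept members, with 113 above and 117 below 0. Over all kept unigenes it was 0.0476, and once centred on that value the members' median was -0.0487. The quartiles of the members were -0.20 and 0.26, against -0.25 and 0.42 for all kept unigenes. A log2 ratio of 1 or more, 2-fold on the scale of RPKM + 1, was reached by 9 members (3.91%, against 8.61% of all kept unigenes). At -1 or less were 10 members (4.35%, against 5.31%). The counting interval lay above 1 for 40 members (17.4%, against 19.8%) and below 1 for 41 (17.8%, against 14.4%). In the higher direction the 5 members just inside 2-fold had log2 ratios of 1.04 to 1.41 and the 5 just outside 0.87 to 0.98. In the lower direction the 5 inside reached -1.20 and the 5 outside -0.81 to -0.97.

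**Figure D1:**
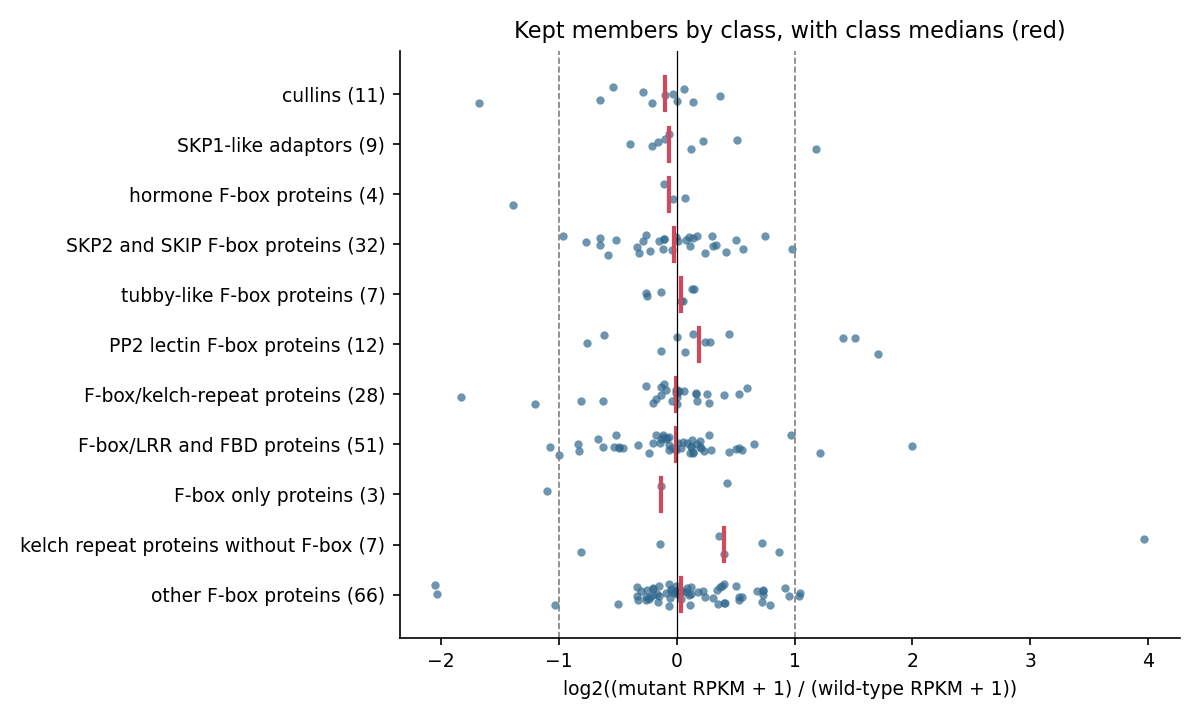
Log2 ratio of each kept member (blue points, 1 per unigene) by class, with the number kept in brackets, the class median in red and dashed lines at 2-fold. The class medians lie between -0.13 and 0.40, and the farthest point, at 3.97, is a kelch repeat unigene without an F-box.

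Cullin scaffolds were read deeply and differed little between the libraries. Cullin-1 was the best hit of 7 unigenes. The largest of these in reads, Unigene9128, had 119 RPKM in mutant buds and 138 in wild-type buds (2619 against 3011 reads), and was 1.15-fold lower (1.10 to 1.22). Unigene9199 leaned the other way at 70.1 against 63.7 RPKM (1.10-fold higher, 1.03 to 1.17). A shorter piece of 693 bases, Unigene16904, had 72.0 against 105 RPKM and was 1.46-fold lower (1.30 to 1.64). Unigene14310 was at 9.84 against 10.1 RPKM. The unigenes therefore lay on both sides of 1, and the sources used here do not say how reads were shared between near-identical copies. Summed over the 7, Cullin-1 had 5321 against 5752 reads, 1.09-fold lower (1.05 to 1.13).

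Cullin-3, the scaffold of ligases with BTB adaptors, was matched by 2 unigenes through the slime mould protein. Unigene4354 had 32.8 RPKM in mutant buds and 35.3 in wild-type buds, and Unigene13011 had 21.8 against 26.9 (1.24-fold lower, 1.11 to 1.38). Cullin-4B, whose ligases act in light signalling in plants, was level at 48.0 against 48.0 RPKM from 1358 against 1353 reads (Unigene18159, best hit human). CAND1, which exchanges F-box modules on cullin-1 and falls in the cullin class by its name, was at 49.1 against 47.2 RPKM (1.04-fold, 0.980 to 1.10, Unigene12897). Of the 11 cullin-class unigenes 8 had a negative log2 ratio, with a median of -0.10. The only member of the class past 2-fold was a piece of 218 bases with 1 against 8 reads (8.03-fold lower, 1.08 to 356, Unigene29736). That is 9.09% of the class lower, against 5.31% of all kept unigenes, and 0 higher, against 8.61%.

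The SKP1-like adaptors held the 3 highest RPKM values of all members in both libraries. SKP1-like protein 1B, known in Arabidopsis as ASK2, matched 4 unigenes. Unigene7349 had 240 RPKM in mutant buds and 252 in wild-type buds, Unigene6351 had 240 against 268, and Unigene17086 had 120 against 129. Unigene6454 was the exception at 222 against 191 RPKM, 1.17-fold higher (1.06 to 1.28). Their sum was 4914 against 5045 reads, with an interval of 0.932 to 1.01 for the fold. SKP1-like protein 21 was at 21.9 against 20.1 RPKM (Unigene9857). A piece of SKP1-like protein 14 was past 2-fold on 8 against 2 reads (Unigene20831), with an interval of 0.795 to 38.5, while the longer SKP1-like 14 unigene had 72 against 97 reads (Unigene9953). Over the 9 adaptor unigenes the median log2 ratio was -0.07. At least 2-fold higher was 1 of them (11.1%, against 8.61% of all kept unigenes) and 0 were lower (against 5.31%).

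**Figure D2:**
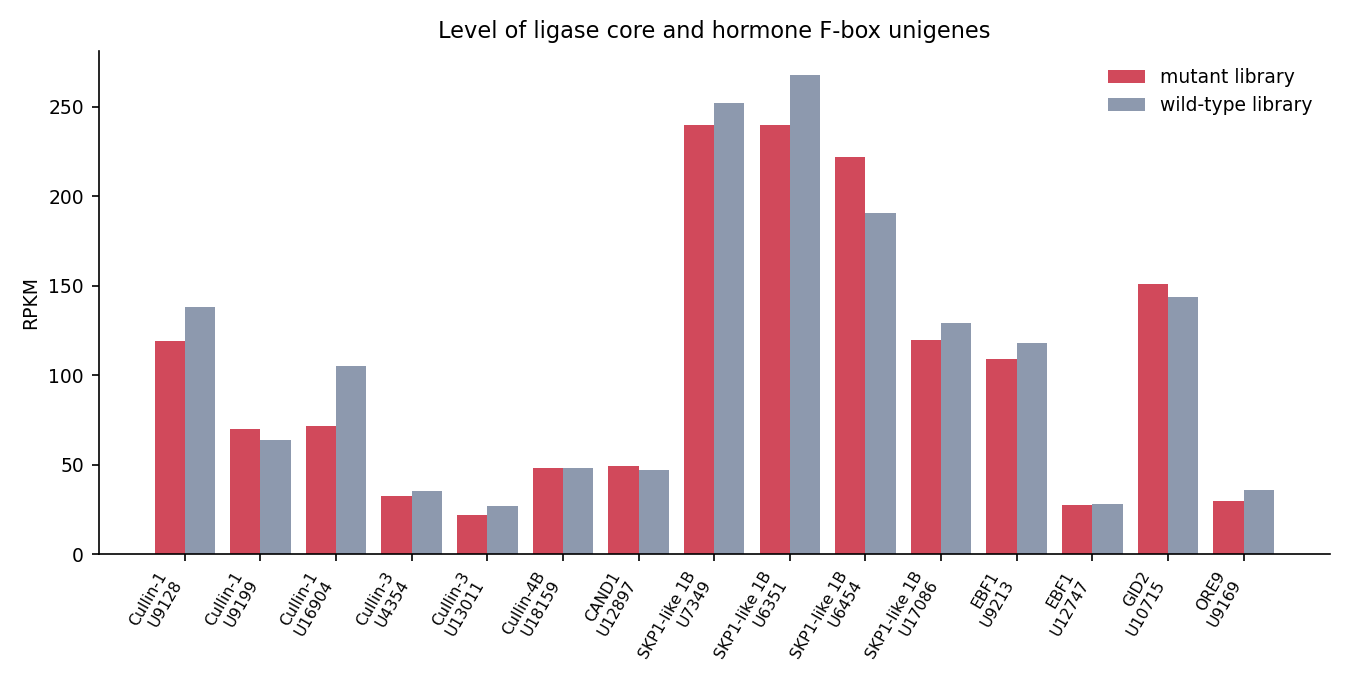
RPKM of 15 cullin, SKP1-like and hormone F-box unigenes in the mutant library (red) and in the wild-type library (grey), 1 library each with no error bar. The widest relative gap between the bars of a pair is that of Cullin-1 Unigene16904, 72.0 against 105 RPKM. ORE9 was chosen after its values were seen, and Unigene14310 and Unigene9857 are not drawn.

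F-box proteins with a known hormone role were also close to level. EBF1, which in Arabidopsis targets the ethylene factor EIN3 for breakdown, was the most deeply read member. Unigene9213 had 109 RPKM in mutant buds and 118 in wild-type buds (3255 against 3504 reads, 1.08-fold lower, 1.03 to 1.13), and Unigene12747 had 27.4 against 28.1. GID2, the F-box protein that in Arabidopsis removes DELLA repressors of gibberellin responses, had 151 against 144 RPKM in its main unigene (1.05-fold, 0.947 to 1.16, Unigene10715). A second GID2 hit of 451 bases had 6 against 23 reads and was 3.85-fold lower (1.52 to 11.6, Unigene31012). Both GID2 unigenes together had 809 against 787 reads. ORE9, called MAX2 in strigolactone signalling and a restraint on shoot branching in Arabidopsis, had 29.7 against 35.7 RPKM (1.20-fold lower, 1.09 to 1.33, Unigene9169). It was named after its values were seen, as were the light and development genes that follow.

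Among members that act in light responses in Arabidopsis, AFR, a positive factor of phytochrome A signalling, was at 104 RPKM in mutant buds and 116 in wild-type buds (1.11-fold lower, 1.03 to 1.20, Unigene17541). EID1, a negative factor of the same pathway listed as phytochrome A-associated F-box protein, was at 28.5 against 26.2 RPKM, with an interval that included 1 (0.935 to 1.26, Unigene8650). Of the members with a meristem or floral role, F-box only protein 6, named LEAF CURLING RESPONSIVENESS in Arabidopsis and a target of miR394 in the shoot apex, was at 34.2 against 37.4 RPKM (0.914-fold, 0.815 to 1.02, Unigene8931). HAWAIIAN SKIRT, listed by its locus At3g61590 and needed for the separation of floral organs, was at 19.1 against 18.8 RPKM (1.01-fold, 0.853 to 1.21, Unigene17702). FBW2, which in Arabidopsis destabilises the small-RNA protein AGO1, had 98.1 against 97.0 RPKM in Unigene17175 and 52.1 against 62.1 in Unigene4554. None of these unigenes differed by 2-fold, and the intervals of AFR and of Unigene4554 excluded 1.

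The SKP1-interacting partners, or SKIP proteins, were 32 unigenes by protein name. They had a median log2 ratio of -0.03. On the scale of RPKM + 1, 0 were at least 2-fold higher (against 8.61% of all kept unigenes) and 0 lower (against 5.31%). SKIP20 is a kelch-type F-box protein of the KMD group, which in Arabidopsis targets cytokinin response regulators and phenylalanine ammonia-lyase. It had 112 RPKM in mutant buds and 90.7 in wild-type buds, 1.24-fold higher (1.15 to 1.33, Unigene5299). At2g44130, of the same group, leaned the other way at 50.1 against 57.7 RPKM (1.15-fold lower, 1.03 to 1.29, Unigene1437). SKIP11 was at 34.0 against 22.8 RPKM (1.49-fold higher, 1.33 to 1.67, Unigene2484). At2g44130 and SKIP11 were named after their values were seen. SKIP4 in Unigene20718 had 41 against 14 reads, a ratio of reads of 2.92 (1.56 to 5.79) but a log2 ratio below 1 because of the pseudocount, whereas its other unigene had 36 against 41 (Unigene30175). SKIP23 had 38 against 63 reads in a weak hit (E-value 2e-06, 1.66-fold lower, 1.10 to 2.56, Unigene12860). Its deepest unigene was level at 489 against 492 (Unigene1982), and its 3 unigenes summed to 621 against 666 (1.08-fold lower, 0.964 to 1.20).

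The tubby-like F-box proteins, which join an F-box to a tubby domain, varied little: all 7 lay between -0.26 and 0.15 on the log2 ratio, with 5542 mutant reads against 5649 wild-type reads in sum. The PP2 group, F-box proteins with a domain like that of phloem lectins, had a median log2 ratio of 0.19. Of its 12 unigenes 3 were at least 2-fold higher, against 8.61% of all kept unigenes, and 0 lower. All 3 were short pieces with few reads, numbered in the middle range described below, where 29.2% of all unigenes were 2-fold higher: PP2-A13 Unigene26834 had 18 against 5 reads, PP2-A13 Unigene21179 had 8 against 1, and PP2-B11 Unigene23706 had 8 against 1. PP2-A13 had more mutant reads in each of its 4 unigenes, and their sum of 77 against 44 reads was 1.74-fold higher (1.19 to 2.58). The deeply read PP2-A12 was 1.18-fold higher at 107 against 90.4 RPKM (1.06 to 1.32, Unigene7466, named after its values were seen). Unigenes named PHLOEM PROTEIN 2-LIKE, taken as phloem markers, had 2127 against 1514 reads over 10 unigenes. Of these 5 had a positive and 5 a negative log2 ratio, with a median of -0.06 and 0 past 2-fold. By counting interval 2 were higher (against 19.8% of all kept unigenes) and 0 lower (against 14.4%). The 3 xylem cysteine proteinase unigenes had 2889 against 1000 reads and a median log2 ratio of -0.85. Past 2-fold, 1 was higher and 1 lower (33.3% each, against 8.61% and 5.31% of all kept unigenes). The part of either list in the PP2 values was not tested.

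The F-box/kelch proteins and the F-box/LRR and FBD proteins were centred on 0, with median log2 ratios of -0.00425 over 28 and -0.00563 over 51 unigenes. In the kelch group 0 were at least 2-fold higher (against 8.61% of all kept unigenes) and 2 lower (7.14%, against 5.31%). One of them, At3g27150, had 0 mutant reads and 15 wild-type reads in Unigene29510. Set against a floor of 3 reads this is at least 5.02-fold lower, and the counting interval begins at 3.60. The longer unigene of that entry was at 210 against 185 reads (Unigene2648). The other, At5g43190, had 2 against 9 reads (Unigene33511), with an interval that included 1 (4.52-fold lower, 0.935 to 43.0).

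In the LRR and FBD group 2 were at least 2-fold higher (3.92%, against 8.61% of all kept unigenes) and 2 lower (3.92%, against 5.31%). At3g26920 had 26 against 2 reads (12.9-fold higher, 3.24 to 113, Unigene21070), though its hit was weak at an E-value of 2e-06. At4g15060 had 71 against 24 reads (2.95-fold higher, 1.83 to 4.89, Unigene18650). On the lower side were At3g48880 in Unigene33145 (11 against 36 reads, 3.29-fold, 1.64 to 7.16) and At3g49150 in Unigene10155 (21 against 49 reads, 2.34-fold, 1.38 to 4.11). The At3g48880 entry also held a unigene on the other side, with 40 against 17 reads (2.34-fold higher, 1.30 to 4.41, Unigene1481), and its 4 unigenes summed to 191 against 201. At3g59200 had 15 against 30 reads (2.01-fold lower, 1.05 to 4.02, Unigene15133), and the FBD-type At1g61330 had 71 against 41 (1.72-fold higher, 1.16 to 2.60, Unigene2477). At deeper coverage F-box/LRR-repeat protein 5 was 1.15-fold higher at 205 against 179 RPKM (1.09 to 1.21, Unigene5981), and a unigene closest to mouse FBXL14 was level at 89.6 against 89.1 RPKM (Unigene1541). F-box/LRR-repeat protein 10 was lower in both of its unigenes, at 12.5 against 18.4 RPKM (Unigene12347) and 22.8 against 32.4 RPKM (Unigene17401), 1.44-fold lower when summed (1.26 to 1.66, named after its values were seen).

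The largest difference of all was a unigene without an F-box. Unigene23803, of 1048 bases, had 154 mutant reads (14.6 RPKM) and 0 wild-type reads. Set against a floor of 3 reads this is at least 51.1-fold higher, and the counting interval begins at 41.1. Its best hit was the human kelch repeat and BTB domain protein KBTBD3, at an E-value of 9e-06, so its name rests on a distant match. Its number lies in the middle range described below, where 29.2% of all unigenes were 2-fold higher. The other kelch-BTB unigene, closest to human KBTBD8, was at 71.7 against 79.0 RPKM (1.10-fold lower, 1.02 to 1.19, Unigene9048, named after its values were seen). Kelch protein At3g27220 had 84 against 63 reads in its deepest unigene (Unigene3175) and 119 against 82 over 5 unigenes (1.45-fold higher, 1.08 to 1.94). A hit to the yeast kelch protein KEL3 had 129 against 72 reads (1.78-fold higher, 1.33 to 2.41, Unigene27983). It was the only member with a fungal best hit. Ribosomal protein unigenes with fungal hits, the marker of fungal RNA, had 1885 against 2038 reads over the 54 kept. They had a median of 16 reads per unigene and a median log2 ratio of -1.12. Past 2-fold lower were 30 (55.6%, against 5.31% of all kept unigenes and 11.3% of those under 50 reads). Past 2-fold higher were 0 (against 8.61% and 16.6%). The part of fungal RNA in the KEL3 value was not tested.

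The lowest log2 ratio of all members, -2.05, was that of a hit to a defence gene. At4g12560, known as CPR1 or CPR30 and an F-box protein that limits the amount of NBS-LRR immune receptors in Arabidopsis, was the best hit of 5 unigenes. Unigene33736, of 1915 bases, had 7 mutant reads (0.364 RPKM) and 89 wild-type reads (4.65 RPKM), 12.8-fold lower (5.95 to 32.7). Its number lies in the last range described below, where 23.1% of all unigenes were 2-fold lower. Unigene27992, of 1745 bases, had 144 against 94 reads and was 1.53-fold higher (1.17 to 2.00). The most abundant unigene of the entry, Unigene17757, was level at 100 against 101 RPKM (1412 against 1415 reads). Over all 5 the sum was 1970 against 2021 reads, with an interval of 0.968 to 1.10 for the fold lower. Both Unigene33736 and the At3g27150 piece thus belonged to entries whose other unigenes were near level or higher.

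The other F-box proteins, mostly known by locus alone, were the largest class with 66 kept unigenes. ORE9, AFR, EID1 and FBW2, described above, were counted in it. The 66 unigenes had 20676 against 20681 reads and a median log2 ratio of 0.04. Of these 2 were at least 2-fold higher (3.03%, against 8.61% of all kept unigenes) and 3 lower (4.55%, against 5.31%), the CPR1 hit included. At5g07610 had 23 against 9 reads in Unigene14791 (2.54-fold higher, 1.13 to 6.25), while its 4 unigenes summed to 1304 against 1460. At-B had 14 against 5 reads in Unigene27342, with an interval of 0.949 to 9.89. Its deepest unigene was lower at 43 against 65 reads (1.52-fold, 1.02 to 2.29, Unigene5235), and its 4 unigenes summed to 99 against 95. On the lower side At3g54460 had 2 against 15 reads in a piece of 217 bases (7.53-fold, 1.75 to 67.9, Unigene32795), whereas its unigene of 4099 bases had 573 against 590 (Unigene11438). At3g07870 had 25 against 56 reads in Unigene36281 (2.25-fold, 1.38 to 3.76), and 809 against 759 over its 6 unigenes. At1g22220 had 50 against 22 reads (2.26-fold higher, 1.35 to 3.92, Unigene2948), just short of 2-fold on the scale of RPKM + 1. At2g27310 had 73 against 40 reads in Unigene24298 (1.82-fold higher, 1.22 to 2.74), but its deepest unigene was lower at 607 against 710 (1.17-fold, 1.05 to 1.31, Unigene8525), and its 6 unigenes summed to 729 against 797. At deeper coverage At1g78280 was 1.31-fold higher at 45.2 against 34.4 RPKM (1.22 to 1.42, Unigene5431, named after its values were seen).

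The differences past 2-fold sat in thinly read unigenes, as they did over all kept unigenes. Of the 19 members past 2-fold, 18 had under 100 reads over both libraries, 12 were under 500 bases, and the counting interval of 4 included 1. Of all kept unigenes 2948 were past 2-fold higher, of which 306 had at least 100 reads and 2232 were under 500 bases. Past 2-fold lower were 1818, of which 85 had at least 100 reads and 1444 were under 500 bases. Over the 142 members of at least 100 reads, 1 was at least 2-fold higher (0.704%, against 1.86% of all such unigenes) and 0 were lower (against 0.517%). By counting interval 24 of the 142 lay above 1 and 29 below (16.9% and 20.4%, against 24.6% and 19.3%). The 55 members of at least 1000 reads lay between -0.54 and 0.56 on the log2 ratio, and all 55 were within 1.5-fold of equal.

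**Figure D3:**
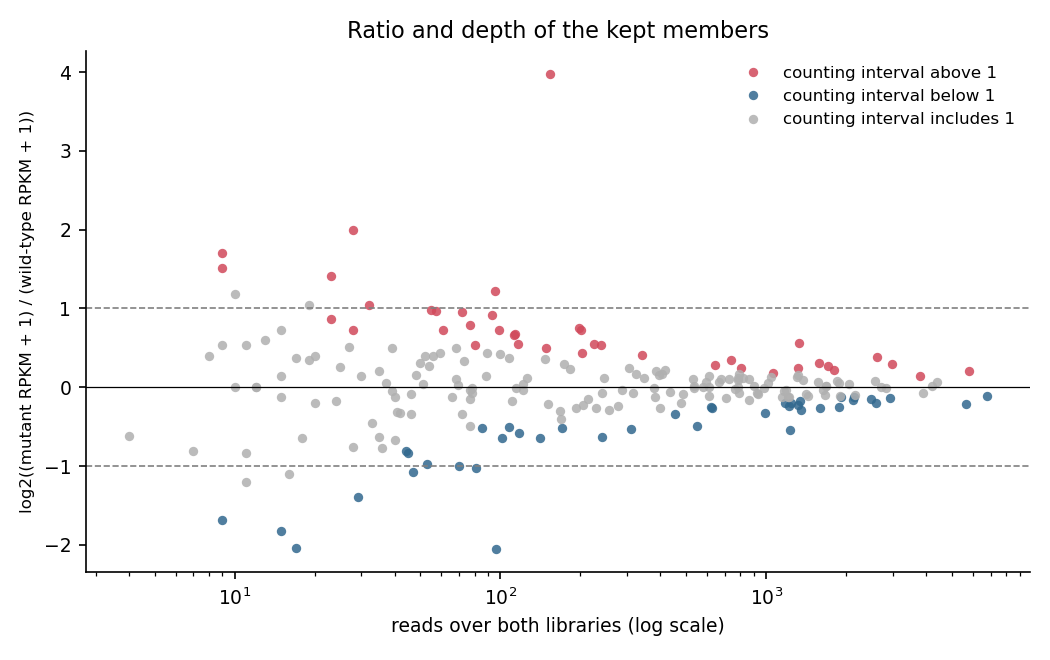
Log2 ratio of the 230 kept members against their reads over both libraries (log axis), with red where the exact counting interval lay above 1, blue where it lay below 1 and grey where it included 1. The points narrow toward 0 as reads increase, and past 100 reads only Unigene23803, at 154 reads and 3.97, is outside the dashed 2-fold lines.

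The direction of a member went with its place in the unigene numbering. The table's unigenes are ordered in 8 runs separated by 7 abrupt drops in length, and the runs were grouped after their values were seen into a first range (up to number 18229), a middle range (18230 to 28070) and a last range (28071 to 36523). In the first range 157 kept members had a median log2 ratio of -0.00531. Of these 157, 1 was past 2-fold higher and 1 past 2-fold lower (0.637% each, against 1.84% and 0.543% of all unigenes there). In the middle range 36 of 40 members had a positive ratio and the median was 0.53. Of these 40, 8 were at least 2-fold higher (20.0%, against 29.2%) and 0 lower (against 0.389%). In the last range 30 of 33 members had a negative ratio and the median was -0.65, with 0 higher (against 0.822%) and 9 lower (27.3%, against 23.1%). Thus 17 of the 19 members past 2-fold were numbered in the middle or last range. The KBTBD3 and At3g26920 hits, the CPR1 hit Unigene33736 and the GID2 hit of 451 bases were among these 17. All unigenes of the middle and last ranges showed the same shift, with medians of 0.66 in the middle range and -0.55 in the last. The first range held 68.3% of the kept members and 53.2% of all kept unigenes. The sources used here do not say what set the numbering, and its part in these results was not tested.

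**Figure D4:**
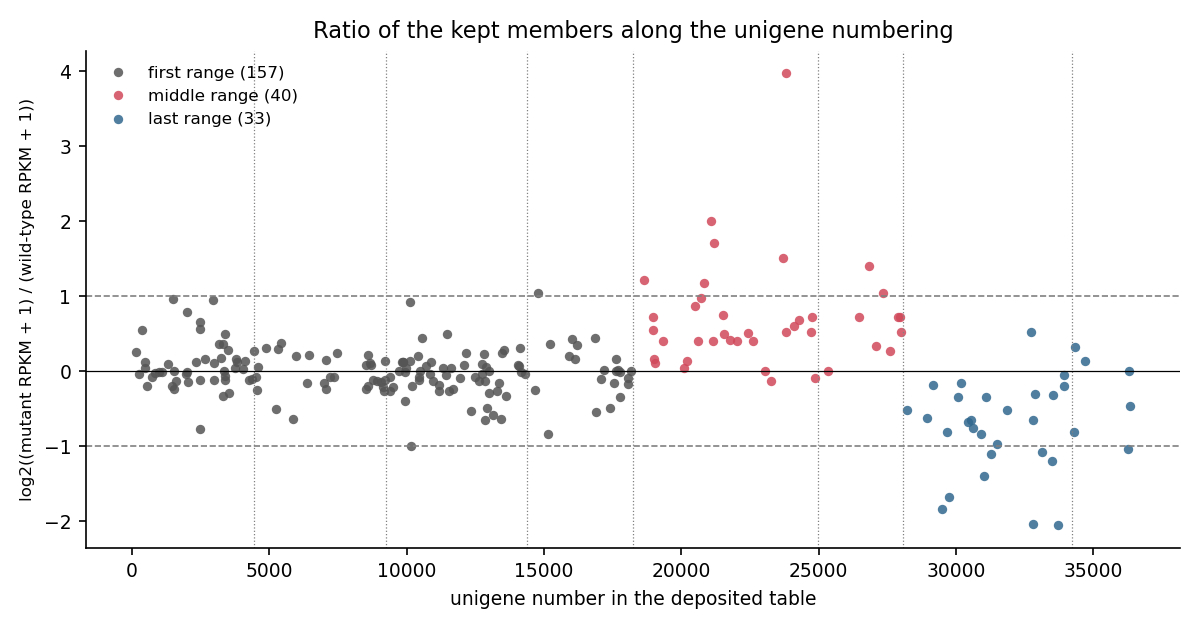
Log2 ratio of the kept members against unigene number, coloured by range, with dotted lines at the drops in length and dashed lines at 2-fold. Points of the first range centre on 0, those of the middle range lie mostly above it and those of the last range mostly below.

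Unigenes with the same best hit often lay on opposite sides. The 238 members matched 133 Swiss-Prot entries, and 58 entries had more than 1 unigene, 163 unigenes together. In 41 of the 58 the unigenes had folds on both sides of 1, and in 10 the counting intervals excluded 1 on both sides. A unigene in the middle and another in the last range was present for 22 entries. In 18 of these the middle unigenes were higher and the last ones lower in the mutant library by reads per library total. One of the 18, At3g24760, was a tie in its last-range unigene, with 6 reads in each library. Summed over the 22, the middle unigenes had 1148 reads in the mutant library against 730 in the wild-type library, the last ones 437 against 774, and all unigenes of these entries 9274 against 9397. All unigenes were shifted in the same directions by range, as given above. The counts of entries were not made outside the members, so they do not set this family apart.

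SKIP16 shows the pattern in a pair of long unigenes. Its middle unigene of 1837 bases had 129 mutant reads and 69 wild-type reads (1.86-fold higher, 1.38 to 2.53, Unigene21527). Its last-range unigene of 1938 bases had 67 against 104 (1.56-fold lower, 1.14 to 2.15, Unigene31859), and the sum of 196 against 173 had an interval that included 1 (0.915 to 1.39). SKIP25 likewise had 25 against 14 reads in Unigene21550 and 14 against 39 in Unigene31487 (2.80-fold lower, 1.49 to 5.58). SKIP2 had 47 against 41 reads in Unigene20227 and 51 against 90 in Unigene30537 (1.77-fold lower, 1.24 to 2.55). The unigenes closest to human FBXL13 had 73 against 43 reads in Unigene18982 (1.69-fold higher, 1.14 to 2.52) and 31 against 54 in Unigene28240 (1.75-fold lower, 1.10 to 2.82). Whether such unigenes are alleles, copies or pieces of 1 gene was not tested.

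**Figure D5:**
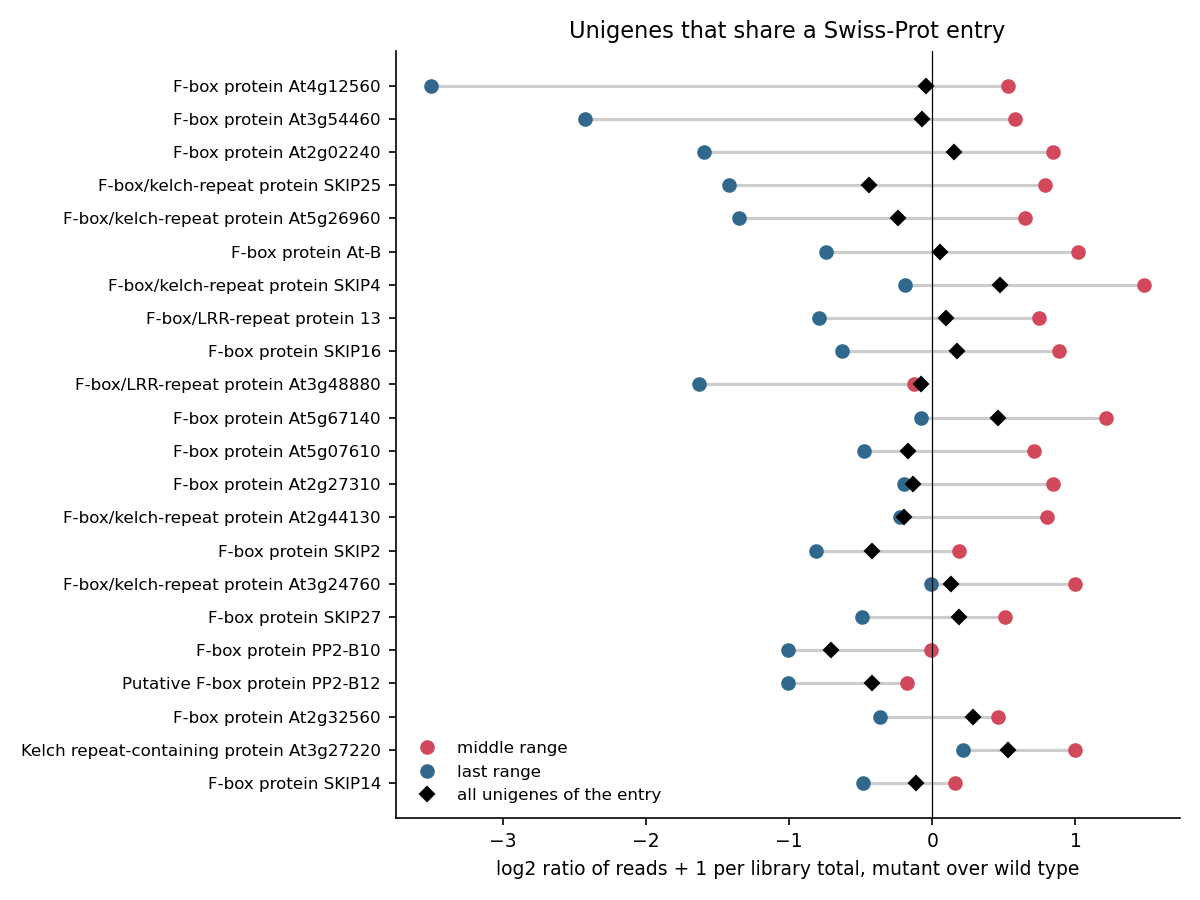
For the 22 entries with unigenes in both the middle and the last range, the log2 ratio of reads + 1 per library total, mutant over wild type, for the middle-range unigenes (red), the last-range unigenes (blue) and all unigenes of the entry (black diamonds). The red points lie right of the blue ones in every entry, and the diamonds lie nearer to 0 than at least 1 of the 2.

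With RPKM summed over each entry, a step added after the data were seen, 5 of 133 entries were at least 2-fold higher (against 3.34% of 10051 entries) and 3 were lower (against 1.75%). Those higher were KBTBD3, At3g26920, PP2-B11, At4g15060 and PP2-A13. PP2-A13 passed by summed RPKM, at a log2 ratio of 1.01, but not by its reads, which gave the 1.74-fold above. The lower ones were At5g43190, At3g49150 and F-box only protein 13, the last with 4 mutant reads against 12 wild-type reads (3.01-fold lower, 0.913 to 12.8, Unigene31275). The median over entries was 0.0126, against 0.021 over all entries.

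A list of ligase partners outside the family held SCF components and, as 30 of its 70 unigenes, BTB/POZ proteins, many of which serve cullin-3 ligases. Of the 70, 67 were kept, with a median log2 ratio of -0.01. At least 2-fold higher were 3 (4.48%, against 8.61% of all kept unigenes) and 3 were lower (4.48%, against 5.31%). RING-box unigenes, the subunit that recruits the ubiquitin-conjugating enzyme, had 1343 mutant reads and 1291 wild-type reads. COP9 signalosome unigenes, which strip NEDD8 from cullins, had 6350 against 6393, with 0 of 13 past 2-fold. Of the other F-box receptors, the TIR1 and AFB auxin receptors had 8022 against 7644 reads, and COI1, the jasmonate receptor, 1035 against 1110. The light-sensing Adagio proteins, which act on the clock and on CONSTANS turnover in Arabidopsis, were both lower: Adagio protein 1 had 907 against 1052 reads (1.16-fold, 1.06 to 1.27, Unigene10400) and Adagio protein 3 had 716 against 860 (1.21-fold, 1.09 to 1.33, Unigene9165). EIN3 and its close relatives, the targets of EBF1, had 4644 against 4794 reads over 6 unigenes. No unigene was named UNUSUAL FLORAL ORGANS, so that floral F-box gene was not analysed here. Of the 6 past 2-fold, 3 higher and 2 lower were BTB/POZ proteins, and the other was a thinly read EIN3 hit with 3 against 13 reads (Unigene36377).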

How the data were processed

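RNA from buds was selected for poly(A) tails and sequenced after fragmentation to about 200 bases, per the labels' protocols. The deposited table gives raw read counts per unigene and the library totals, per the file headers, and these equalled the column sums. It also gives RPKM by the authors, and 100% of these values were recomputed within 1e-04. Unigene length and Swiss-Prot E-values are other columns deposited by the authors. Assembler, aligner, counting tool and strandedness: not given in the sources used here.

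The log2 ratio used a pseudocount of 1 RPKM, which understates differences of thinly read unigenes, and a minimum of 1 RPKM in at least 1 library. With 1 library per group no count model was fitted. Fold intervals are exact 95% Clopper-Pearson intervals, tested on simulated data. Drops in length were found with windows of 100 unigenes and a 2-fold threshold. Classes and lists were matched by words in the protein name. Named unigenes, 50 in all, were the cullin, SKP1-like and hormone members of at least 200 reads, the 12 highest and 12 lowest ratios, the 8 most read, and the 8 largest folds of at least 100 reads with an interval excluding 1. Other unigenes of the same entries were named after their values were seen. The members and lists were chosen with earlier results of these data known. Python 3.11.15, pandas 2.3.3, NumPy 2.4.6, SciPy 1.17.1 and matplotlib 3.10.9 were used.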

Additional observations from a re-analysis of the deposited data

How the results depend on the processing

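The median log2 ratio of the members (-0.00112) lay between -0.00542 and 0.0126 under the other settings tried, except that it was -0.0487 after centring on all kept unigenes and -0.0609 with trimmed-mean scaling of the libraries. The counts past 2-fold, 9 higher and 10 lower, depended on how thinly read unigenes were treated. They were 16 and 16 with a pseudocount of 0.1, 1 and 1 with a pseudocount of 5, 4 and 4 with a minimum of 5 RPKM, 1 and 0 with at least 100 reads, and 3 and 4 with at least 500 bases. They were 4 and 4 with only the longest hit of each Swiss-Prot entry, and 2 and 2 at a 4-fold threshold. Restriction to unigenes numbered before the fourth drop in length, added after the data were seen, gave 1 and 1, and RPKM summed per entry, added likewise, gave 5 and 3. Counting by an interval that excludes 1 gave 40 and 41. Without a minimum, after centring or trimmed-mean scaling, with plant hits alone and with E-values of at most 1e-10, both counts stayed within 1.5 times. All 121 class medians recomputed stayed within the interval or range of the class. For the smallest classes that is the full range of their unigenes, which a median can hardly leave. The median of the 3 F-box only unigenes, -0.127, became -0.613 with plant hits alone and 0.154 with at least 500 bases. Of 144 recomputed folds of named unigenes 143 stayed within the counting interval, and the log2 fold of Unigene33736 became -2.05 on the pseudocount scale. No paired analysis was possible because each group holds 1 library. With so few libraries, depth limits only the counting error, and the spread between trees is unknown.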

Other observations

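A further 32 unigenes carried F-box, kelch or SKP1 in the name but fell outside the wording that chose the members. The 31 kept had a median log2 ratio of -0.02. Past 2-fold higher was 1 of them (3.23%, against 8.61% of all kept unigenes) and 0 were lower (against 5.31%). The higher one was a hit to the FBD-type At1g66300 with 76 mutant reads and 34 wild-type reads (2.23-fold higher, 1.47 to 3.44, Unigene12115). SKIP35, an F-box protein with ankyrin repeats, was level at 2187 against 2203 reads (0.989-fold, 0.931 to 1.05, Unigene18150). A hit to SUGT1, a partner of SKP1 and of immune receptors, had 1894 against 2026 reads (1.07-fold lower, 1.01 to 1.14, Unigene8836). Hits to the FBD-type At5g53840 lay in each number range, with 39 against 83 reads in the last range (2.14-fold lower, 1.44 to 3.21, Unigene29011), 18 against 26 in the middle range (Unigene22997) and 479 against 475 in the first (Unigene10248). These unigenes were named after their values were seen.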
